A study of Homo sapiens with 4 samples.

Results

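The kinesins are a superfamily of motor proteins that hydrolyse ATP to move along microtubules or to take them apart. The members measured here were the 41 genes, of 18417 genes with a probe set of their own, whose symbol is KIF followed by digits and at most one letter A to C, or KIFC1, KIFC2 or KIFC3. They were read from 45 probe sets, and for a gene with more than 1 the brightest stood for it. KIF4B had only a probe set shared with KIF4A and is not counted among the 41. The cells were MiaPaCa2, an established line from a human pancreatic carcinoma. They received LY101-4B at 50 µM for 24 h (2 arrays) or vehicle for 24 h (2 arrays), and the series title calls the compound an E2F inhibitor. A protocol text attached to all samples names LY101-4D at 25 µM instead; the titles, agent labels and design text were followed. The design text states that the 2 samples of each group are biological replicates, all from this single line.

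Some kinesins build and work the mitotic spindle: they push the poles apart, move and align chromosomes, organise the central spindle and help the daughter cells to separate. Their transcripts are known to be cell cycle regulated, with a peak in G2 and mitosis, and much of that control runs through a promoter element called the CHR (cell cycle genes homology region), often beside CCAAT boxes bound by the factor NF-Y. Others carry vesicles, organelles and protein complexes through the cytoplasm of cells whether or not they divide. From these known roles the 41 genes were put in 3 lists: 13 mitotic kinesins, 15 transport kinesins, and 13 others that act at cilia or centrioles, regulate microtubule ends or are less well studied.

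The promoters of the mitotic and transport kinesins are set out first, because the known cell cycle control of the mitotic genes acts through promoter elements. RefSeq promoter windows of build GRCh38.p14, 250 bases before to 50 after the start site and read along the gene's strand, were matched by symbol for 33 of the 41 genes. Some genes have several starts, which gave 42 windows. The CHR was searched as TTTGAA on both strands, with TTTAAA as a variant. The CCAAT box was searched by those letters on both strands. The E2F element was searched on both strands in 4 spellings. One spelling was TTTCCCGC. Another was TTTGGCGC, the one found in KIF15. The remaining spellings were TTTCGCGC and, differing from it in the middle, TTTGCCGC. Matches of different motifs overlapped in 0 cases in the kinesin windows. Of the 5 mitotic genes below, KIF11, KIF23 and KIF4A hold TTTGAA and CCAAT, KIF20A holds TTTAAA and CCAAT, and KIF15 holds TTTGAA without CCAAT. KIF3C, a transport gene, stands beside them as one without a match. The transport gene KIF5B, which holds TTTGAA and CCAAT, is not shown. Capitals mark the matches, on either strand.
KIF11, chr10:92592880-92593179, plus strand: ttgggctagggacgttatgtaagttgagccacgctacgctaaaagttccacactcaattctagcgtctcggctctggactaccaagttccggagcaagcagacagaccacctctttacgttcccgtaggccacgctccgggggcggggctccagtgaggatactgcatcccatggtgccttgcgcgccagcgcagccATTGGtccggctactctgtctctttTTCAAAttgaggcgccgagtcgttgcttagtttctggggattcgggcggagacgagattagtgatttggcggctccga
KIF20A, chr5:138178862-138179161, plus strand: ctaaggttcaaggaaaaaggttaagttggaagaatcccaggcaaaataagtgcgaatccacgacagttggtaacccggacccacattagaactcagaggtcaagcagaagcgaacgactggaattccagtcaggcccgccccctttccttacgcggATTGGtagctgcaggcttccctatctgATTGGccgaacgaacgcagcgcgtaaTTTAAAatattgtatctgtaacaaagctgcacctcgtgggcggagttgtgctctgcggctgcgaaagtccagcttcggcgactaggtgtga
KIF23, chr15:69414099-69414398, plus strand: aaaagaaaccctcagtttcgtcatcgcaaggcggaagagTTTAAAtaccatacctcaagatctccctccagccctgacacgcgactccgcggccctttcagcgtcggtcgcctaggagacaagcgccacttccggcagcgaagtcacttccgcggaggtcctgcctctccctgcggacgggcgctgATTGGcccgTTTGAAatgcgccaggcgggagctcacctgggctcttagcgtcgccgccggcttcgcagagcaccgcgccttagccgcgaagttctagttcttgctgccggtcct
KIF4A, chrX:70289854-70290153, plus strand: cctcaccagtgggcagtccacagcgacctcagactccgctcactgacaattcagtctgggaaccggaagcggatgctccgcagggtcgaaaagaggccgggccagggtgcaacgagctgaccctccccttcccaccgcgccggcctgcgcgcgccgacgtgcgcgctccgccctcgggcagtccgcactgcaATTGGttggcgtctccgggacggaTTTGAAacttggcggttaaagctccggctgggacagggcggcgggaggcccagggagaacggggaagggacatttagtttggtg
KIF15, chr3:44761544-44761843, plus strand: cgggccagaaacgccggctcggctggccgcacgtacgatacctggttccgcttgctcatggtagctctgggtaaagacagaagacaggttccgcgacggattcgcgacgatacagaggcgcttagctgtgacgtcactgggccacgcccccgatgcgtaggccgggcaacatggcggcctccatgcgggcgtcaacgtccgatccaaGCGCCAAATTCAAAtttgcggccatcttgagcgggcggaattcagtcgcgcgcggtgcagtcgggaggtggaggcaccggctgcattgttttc
KIF3C, chr2:25982448-25982747, minus strand: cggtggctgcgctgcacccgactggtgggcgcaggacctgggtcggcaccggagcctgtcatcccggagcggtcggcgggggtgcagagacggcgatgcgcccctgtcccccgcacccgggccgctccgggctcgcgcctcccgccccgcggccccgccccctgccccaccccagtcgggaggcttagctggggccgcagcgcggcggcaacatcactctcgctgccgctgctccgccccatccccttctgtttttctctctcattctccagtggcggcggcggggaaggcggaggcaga

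TTTGAA stood in a window of 9 of the 13 mitotic kinesins, of 1 of the 11 transport kinesins with a window (KIF5B) and of 0 of 9 others, while 18.2% of all 27305 RefSeq genes with a window (15.2% of all 35116 windows) hold it. CCAAT stood in 10 of the 13 mitotic, 4 of 11 transport and 3 of 9 other kinesins, against 39.7% of all genes. Both together were found in 8 of 13 mitotic, 1 of 11 transport and 0 of 9 other kinesins, and in 7.3% of all genes. In KIF11 the match to TTTGAA began 28 bases upstream of the start site and the CCAAT box 53 bases upstream, and in KIF4A they lay at 34 and 58. KIF20A had no TTTGAA but the variant TTTAAA at 41 bases upstream, below CCAAT boxes at 67 and 94; the variant is found in 14.5% of all genes. The E2F element was found in 1 of 13 mitotic kinesins (KIF15, directly before its TTTGAA), 0 of 11 transport and 1 of 9 other kinesins (KIF25). Of all genes 4.0% hold it. KIF2B was the mitotic kinesin with none of these motifs in its window. Its difference did not pass the test, and neither did that of KIF5B, which holds both TTTGAA and CCAAT. KIF20A, KIF22 and KIF2C fell without a TTTGAA in their windows. Any link between motif and difference was not tested. The motifs are matches of letters, not measured binding sites.

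**Figure D1:**
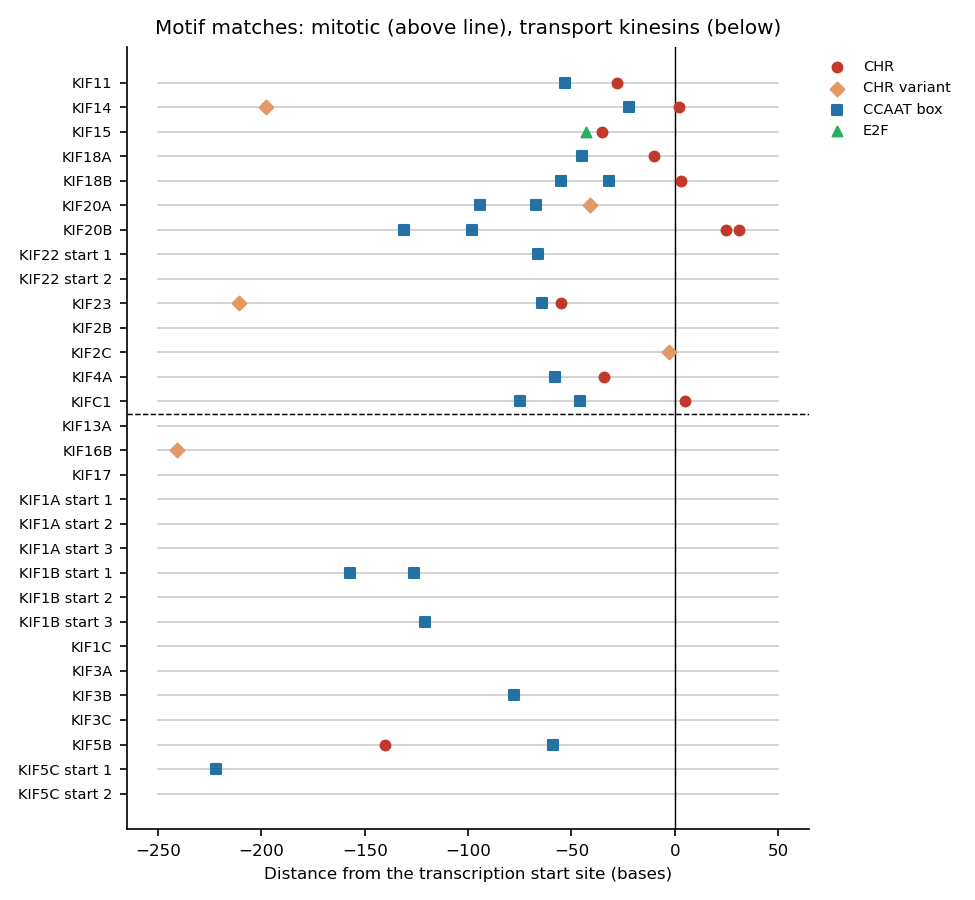
Motif matches in the promoter windows of the 13 mitotic kinesins (above the dashed line) and the 11 transport kinesins with a window (below), by distance in bases from the start site. The TTTGAA matches of the mitotic genes lie from 55 bases before to 31 after the start, and of the transport genes KIF5B alone has one, 140 bases before it.

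The array medians ranged from 5.88 to 5.97 on the log2 RMA scale. The epithelial keratin gene KRT18 averaged 12.4 log2 units with LY101-4B and 12.9 with vehicle and fell 1.48-fold (limma adjusted p 0.0106). KRT8 fell 1.78-fold (adjusted p 0.0037), and KRT19 did not pass (-0.09). By contrast the epithelial adhesion genes EPCAM (3.77 to 4.12 over the arrays) and CDH1 (4.44 to 4.63) lay below the array medians. The leukocyte marker PTPRC lay between 3.36 and 3.56 and the endothelial marker PECAM1 between 4.67 and 4.90. The fibroblast marker COL1A1 (6.88 to 7.02), by contrast, lay above the array medians. The mesenchymal gene VIM lay between 12.47 and 12.66. CDKN2A, reported lost from this line, lay between 5.73 and 6.11, around the array medians. No detection calls were used, so no gene was called absent.

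With LY101-4B, 13 of the 41 kinesins fell, 3 rose and 25 did not pass a limma test adjusted over all probe sets by Benjamini and Hochberg at 0.05; of all 21214 probe sets tested, 10.5% fell and 9.10% rose. The falls lay almost wholly in the mitotic list, where 12 of 13 fell and 0 rose (by limma, also 0 at an unadjusted p under 0.05). With KIF2A, which also acts at spindle poles, and KIF24 counted as mitotic, 13 of 15 fell, with a median difference of -0.98 log2 units. In the transport list 0 of 15 fell and 3 rose, and at an unadjusted limma p under 0.05 these counts were 2 and 5. In the third list 1 of 13 fell and 0 rose, or 2 and 0 without adjustment. Of all 18417 genes, 3173 were lower and 2760 higher at that unadjusted p. The median difference, LY101-4B minus vehicle, was -1.16 log2 units over the mitotic kinesins, 0.11 over the transport kinesins and 0.04 over the others, beside 0.00 over all 18417 genes. On the separate LY101-4B arrays, each against the vehicle mean, the mitotic median was -1.22 and -1.06 and the transport median 0.05 and 0.16. Of the 13 mitotic kinesins 7 fell by at least 2-fold, a size of fall that 1.62% of all probe sets reached. Groups did not overlap in 13 of 13 mitotic, 9 of 15 transport and 6 of 13 other kinesins, beside 58.0% of all probe sets. The lists were drawn up with earlier results of these data known, so these counts are a description and no test of a list was made.

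**Figure D2:**
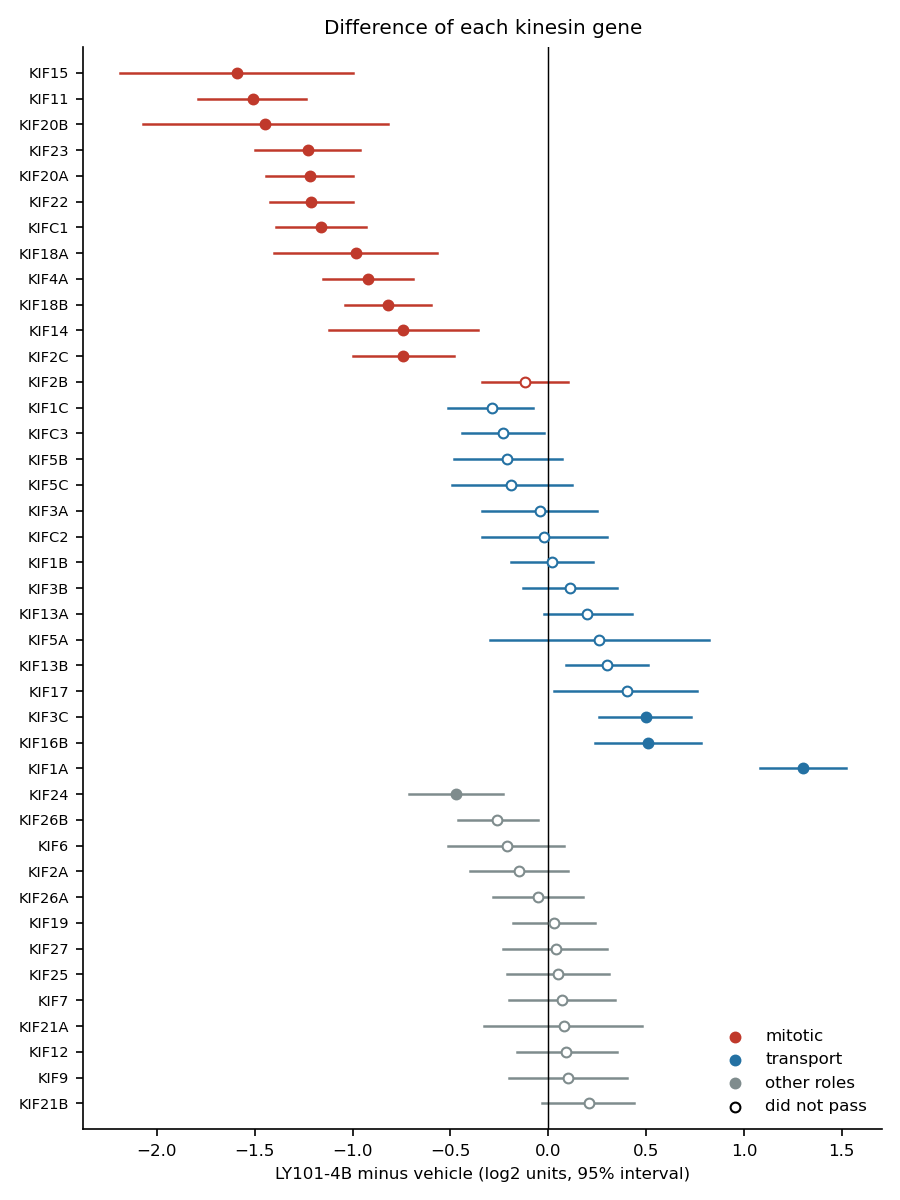
Difference of each of the 41 kinesin genes, LY101-4B minus vehicle in log2 units, with its 95% interval from the limma fit; filled points passed the test. Of the mitotic genes only KIF2B has an interval that reaches 0.

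Among the motors that set up a bipolar spindle, KIF11, which slides antiparallel microtubules to push the poles apart, had 7.90 and 8.14 log2 units on the LY101-4B arrays, against 9.51 and 9.55 on the vehicle arrays. The difference was -1.51 ± 0.11 log2 units (SE), a 2.85-fold fall with a limma adjusted p of 0.0011. KIF15, which helps to keep the spindle bipolar beside KIF11, had 5.37 and 6.09 with LY101-4B and 7.19 and 7.46 with vehicle. The value of 5.37, on LY101-4B replicate 1, lay below the median of that array (5.97). The fall of KIF15 was the largest of the family over all 4 arrays, 3.02-fold (-1.59 ± 0.24, limma adjusted p 0.0086). It was smaller than that of KIF11 without LY101-4B replicate 1 (-1.24 against -1.39) and without vehicle replicate 2 (-1.46 against -1.49). Over all arrays KIF15 ranked 77th from the lowest of the 18417 genes, with KIF11 at 90th. Both genes were lower on each LY101-4B array than on either vehicle array, but the LY101-4B arrays lay further apart for KIF15 than for KIF11. KIFC1, a minus-end directed motor that draws spindle poles together, had 8.38 and 8.29 with LY101-4B and 9.55 and 9.45 with vehicle, a 2.24-fold fall (adjusted p 0.0015). A dimmer KIFC1 probe set fell 2.20-fold.

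The next motors act on chromosomes, kinetochores or astral microtubules. KIF22, a chromokinesin that pushes chromosome arms away from the poles, had 8.22 and 8.26 with LY101-4B and 9.46 and 9.45 with vehicle. It fell 2.32-fold with close replicates (-1.21 ± 0.08, adjusted p 0.0010), and its dimmer probe set fell 2.31-fold. KIF4A, a chromokinesin that also shapes the central spindle with PRC1, had 9.22 and 9.32 with LY101-4B and 10.24 and 10.14 with vehicle, 1.89-fold lower (adjusted p 0.0025). The probe set that KIF4A shares with KIF4B fell 1.66-fold (adjusted p 0.0071), and the genes cannot be told apart there. KIF18A, which dampens chromosome movements at the metaphase plate, had 7.62 and 8.11 with LY101-4B and 8.81 and 8.89 with vehicle. It was 1.97-fold lower (adjusted p 0.0130), and without vehicle replicate 2 the adjusted p was 0.0532. KIF18B, which acts on the plus ends of astral microtubules, had 6.86 and 6.97 with LY101-4B and 7.72 and 7.75 with vehicle. It fell 1.77-fold (adjusted p 0.0032), and by 1.85-fold on a dimmer probe set.

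The depolymerase gene KIF2C, whose product MCAK corrects faulty kinetochore attachments, had 8.92 and 9.12 with LY101-4B and 9.79 and 9.73 with vehicle. It fell 1.67-fold (-0.74 ± 0.10, adjusted p 0.0071), a call that missed the threshold without vehicle replicate 1 (0.0503). Its relative KIF2B was the mitotic kinesin that did not pass: 5.55 and 5.63 with LY101-4B against 5.75 and 5.67 with vehicle (-0.12 ± 0.09, adjusted p 0.428). The KIF2B values lay below the median of every array.

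The motors of the central spindle and of cytokinesis fell as well. KIF23, which bundles midzone microtubules as a subunit of centralspindlin, had 9.23 and 9.41 with LY101-4B and 10.47 and 10.62 with vehicle, and fell 2.34-fold (adjusted p 0.0019). KIF20A, needed to bring Aurora B to the midzone, had 9.14 and 9.24 with LY101-4B and 10.42 and 10.40 with vehicle, and fell 2.32-fold (adjusted p 0.0011). The groups of both genes were far apart compared with their replicates. KIF20B, which acts late in cytokinesis, had 6.81 and 7.58 with LY101-4B and 8.52 and 8.77 with vehicle. Its 2.73-fold fall (-1.45 ± 0.25, adjusted p 0.0139) carried the widest gap between LY101-4B arrays of all the kinesins, 0.77 log2 units. KIF14, which works with citron kinase in cytokinesis, had 8.10 and 8.52 with LY101-4B and 8.99 and 9.11 with vehicle. It fell 1.67-fold (-0.74 ± 0.15, adjusted p 0.0235), and missed the threshold without vehicle replicate 1 (0.0697) or replicate 2 (0.104). With 1 array left out the spread is estimated from less data, so a lost call is not in itself a weaker effect.

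**Figure D3:**
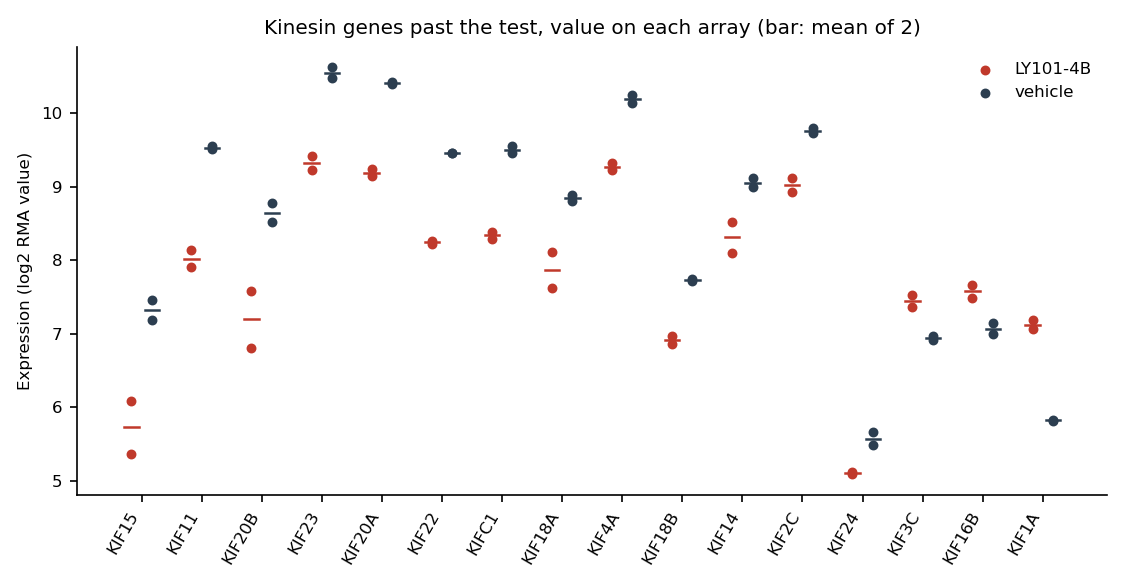
Log2 RMA value on each array for the 16 kinesin genes past the test, LY101-4B left of vehicle for each gene, with bars at the mean of 2 arrays. The groups of all 16 genes are separate, and KIF15, KIF20B and KIF18A show the widest spread between LY101-4B arrays.

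LY101-4B replicate 1 was lower than LY101-4B replicate 2 in 12 of the 13 mitotic kinesins, beside 10731 of all 18417 genes. The median gap between the LY101-4B arrays was 0.18 log2 units over the mitotic kinesins and 0.13 over all genes. Between the vehicle arrays it was 0.08 and 0.09. Of the mitotic kinesins, KIFC1 was the gene with the higher value on LY101-4B replicate 1.

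General proliferation markers moved with the mitotic kinesins. MKI67, the Ki-67 gene, fell 2.79-fold, the topoisomerase gene TOP2A 2.64-fold and the replication clamp gene PCNA 3.63-fold, with limma adjusted p between 0.0004 and 0.0010. In RNA from whole cultures, fewer cells in G2 and mitosis and less transcript per cell cannot be told apart, and the part of either in the fall of the mitotic kinesins was not tested.

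In the main fit the transport kinesins that passed the test all rose, 3 of 15, with 0 lower. Over all probe sets 9.10% were higher and 10.5% lower, and nothing particular to the transport list is read from these counts. Some also passed as lower under other settings: 2 over the brighter 50%, 1 with median centring and 1 with an intensity trend. KIF1A, the motor of synaptic vesicle precursors and dense-core vesicles in neurons, had 7.18 and 7.07 with LY101-4B and 5.82 and 5.83 with vehicle. The difference of 1.30 ± 0.09 log2 units (SE) was a 2.47-fold rise (limma adjusted p 0.0010), and KIF1A was the single kinesin to rise by at least 2-fold, a size of rise that 1.59% of all probe sets reached. Its vehicle values lay below the array medians and its LY101-4B values above them. KIF16B, which carries early endosomes, had 7.49 and 7.66 with LY101-4B and 7.15 and 6.99 with vehicle, 1.42-fold higher (adjusted p 0.0256). KIF3C, a partner of KIF3A in a heterodimeric motor, had 7.52 and 7.36 with LY101-4B and 6.92 and 6.97 with vehicle, 1.41-fold higher (adjusted p 0.0198). The groups were separate in each gene. KIF1A passed without any single array, whereas KIF16B and KIF3C lost the call in some of those fits, with differences of 0.42 to 0.59 and 0.42 to 0.57. For KIF16B the adjusted p was 0.0787 and 0.173 with either vehicle array removed and 0.0667 with LY101-4B replicate 2 removed. For KIF3C it was 0.138 and 0.104 with either vehicle array removed and 0.0540 with LY101-4B replicate 1 removed.

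The other 12 transport kinesins did not pass, with differences from -0.29 to 0.40. KIF5B, the widely expressed heavy chain of conventional kinesin, had 10.69 and 10.91 with LY101-4B and 10.94 and 11.07 with vehicle (-0.21, 95% interval -0.48 to 0.07); its groups just failed to overlap. Its relatives KIF5A (0.26, interval -0.30 to 0.82) and KIF5C (-0.19, interval -0.49 to 0.12), known chiefly from neurons, had low values, and a dimmer KIF5A probe set gave 0.00. In the heterotrimeric motor of cilia and vesicles, KIF3A differed by -0.04 (interval -0.34 to 0.25) and KIF3B by 0.11 (interval -0.13 to 0.35). Of the vesicle motors, KIF1B differed by 0.02, KIF13A by 0.20 and KIF17 by 0.40, while the minus-end motors KIFC2 and KIFC3 differed by -0.02 and -0.23. The nearest to the threshold were KIF13B (0.30, adjusted p 0.0639) and KIF1C (-0.29, adjusted p 0.0668), in opposite directions.

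In the third list KIF24, a depolymerase of centrioles that restrains the growth of cilia, had 5.12 and 5.09 with LY101-4B and 5.49 and 5.66 with vehicle. It fell 1.38-fold (-0.47 ± 0.10, limma adjusted p 0.0242), with values below the array medians, and the call was lost without any 1 of the 4 arrays (0.0609 to 0.188). KIF2A, a depolymerase of spindle poles and of neurons, did not pass, with 9.51 and 9.69 with LY101-4B and 9.72 and 9.79 with vehicle (-0.15, interval -0.40 to 0.10). The ciliary and signalling kinesins KIF7 (0.07), KIF19 (0.03), KIF27 (0.04), KIF6 (-0.21) and KIF9 (0.10) did not pass. Nor did KIF21A (0.08) and KIF21B (0.21), which restrain microtubule growth, or KIF12 (0.09), KIF25 (0.05), KIF26A (-0.05) and KIF26B (-0.26).

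The standard nomenclature sorts kinesins into numbered families by the sequence of the motor domain. In 6 families mitotic kinesins fell beside members of the other lists that did not pass, fell less or rose. In family 3 KIF14 fell 1.67-fold while KIF1A and KIF16B rose. On each array the KIF14 value minus the KIF1A value was 0.92 and 1.45 with LY101-4B and 3.18 and 3.28 with vehicle, a change of -2.04 log2 units. In family 4 KIF4A fell, and KIF7, KIF21A, KIF21B and KIF27 had differences between 0.04 and 0.21. KIF4A minus KIF21A was 2.09 and 1.72 with LY101-4B and 3.01 and 2.79 with vehicle. In family 12, KIF15 minus KIF12 changed by -1.69, and in family 8 KIF18A minus KIF19 by -1.01. In family 13 KIF2C minus KIF2A was -0.60 and -0.57 with LY101-4B and 0.07 and -0.06 with vehicle, a change of -0.59. All 4 members of family 13 were below 0, and KIF24 passed as lower too. KIF2A also acts at spindle poles and the mitotic KIF2B did not pass, so family 13 showed no clean split by role. In family 14 KIFC1 minus KIFC3 changed by -0.93. Family 6, in which every member acts in cytokinesis, was the only family of more than 1 measured gene to fall throughout (3 of 3). The pairs were picked with the values known. Groups of 2 arrays cannot give an exact 2-sided permutation p below 0.333, which each of these 6 pairs, and KIF2C against KIF2B, gave.

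**Figure D4:**
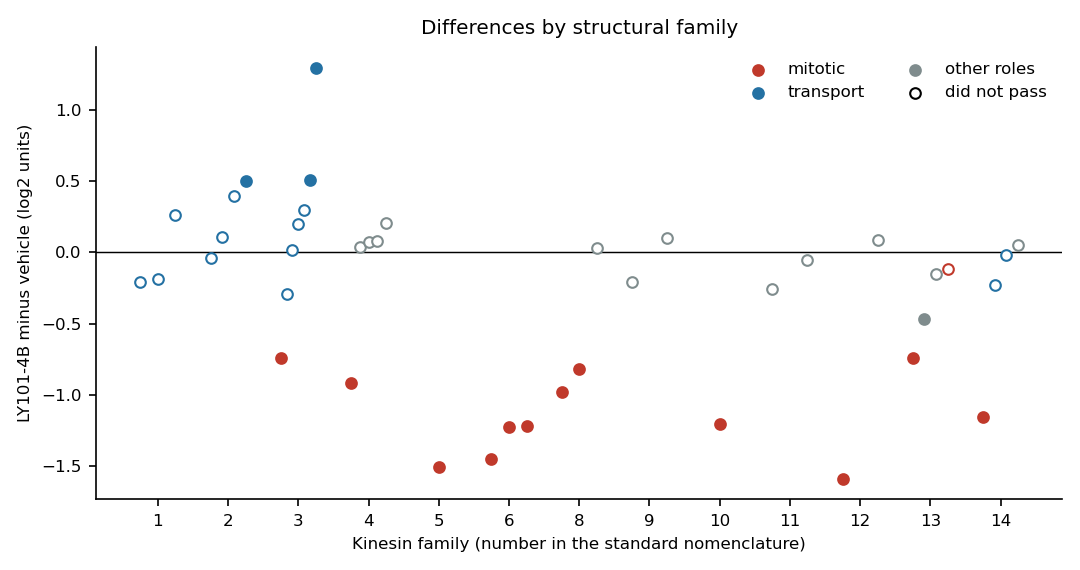
Difference of each kinesin gene, LY101-4B minus vehicle in log2 units, by numbered family, coloured by role; filled points passed the test. In families 3, 4, 8, 12, 13 and 14 the mitotic members that fell lie below the other members. Family 13 also holds the mitotic KIF2B, which did not pass (-0.12).

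Transcripts of proteins that work with the mitotic kinesins were mostly lower too. Of 14 partners measured, 12 fell and 0 rose (0 also at an unadjusted p under 0.05 by limma), with a median of -0.89 log2 units, where 10.5% of all probe sets fell and 9.10% rose. AURKB, the kinase that KIF20A brings to the midzone, had 8.75 and 8.66 with LY101-4B and 10.07 and 10.15 with vehicle, a 2.64-fold fall. ECT2, the exchange factor that centralspindlin recruits to start the cleavage furrow, fell 2.57-fold, and NUSAP1, a spindle microtubule binder, 2.31-fold. CENPE, itself a kinesin by structure though not by symbol, had 6.80 and 7.12 with LY101-4B and 7.80 and 8.07 with vehicle, and fell 1.96-fold (adjusted p 0.0092). The partners that did not pass, named after their values were seen, were NUMA1 (-0.30, limma adjusted p 0.0631) and MAPRE1 (-0.16, 0.281). They encode a spindle pole protein and the microtubule end binder EB1.

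Of 17 partners of the transport kinesins measured, 3 rose, 1 fell and 13 did not pass, with a median of 0.01. These counts are 17.6% higher and 5.88% lower, beside 9.10% higher and 10.5% lower over all probe sets, and nothing particular to the list is read from them. The kinesin scaffold gene SPAG9 had 10.87 and 10.92 with LY101-4B and 10.31 and 10.35 with vehicle, a 1.48-fold rise (adjusted p 0.0087). The mitochondrial adaptor gene TRAK2 rose 1.41-fold and the scaffold gene MAPK8IP1 1.35-fold, while KIFBP, which binds and restrains several kinesins, fell 1.30-fold (limma adjusted p 0.0184 to 0.0381 for these 3). SPAG9 (0.0810 and 0.0626) and TRAK2 (0.128 and 0.107) missed the threshold without vehicle replicate 1 or 2, KIFBP without these (0.216 and 0.205) or LY101-4B replicate 1 (0.0901), and MAPK8IP1 without any 1 array (0.0742 to 0.252).

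The dynein list held subunits of this minus-end directed motor and of its cofactor dynactin. It also held 4 genes of associated proteins (NDEL1, NDE1, PAFAH1B1 and BICD2). Of 21 measured genes 2 rose, 2 fell and 17 did not pass, with a median of -0.04, close to the shares over all probe sets (9.10% higher and 10.5% lower). The called subunit genes were DYNC1H1 and DYNLT3. NDEL1, which helps to activate dynein, had 9.75 and 9.83 with LY101-4B and 8.92 and 8.91 with vehicle, a 1.83-fold rise (adjusted p 0.0024) that passed without any single array. The heavy chain gene DYNC1H1 rose 1.32-fold. The light chain gene DYNLT3 fell 1.35-fold, with values of 4.47 to 4.93, below the array medians, and the adaptor gene BICD2 fell 1.42-fold. These 3 calls were lost with vehicle replicate 1 removed (0.180, 0.148 and 0.103), with vehicle replicate 2 removed (0.162, 0.146 and 0.150) and with LY101-4B replicate 1 removed (0.0535, 0.0535 and 0.0612).

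**Figure D5:**
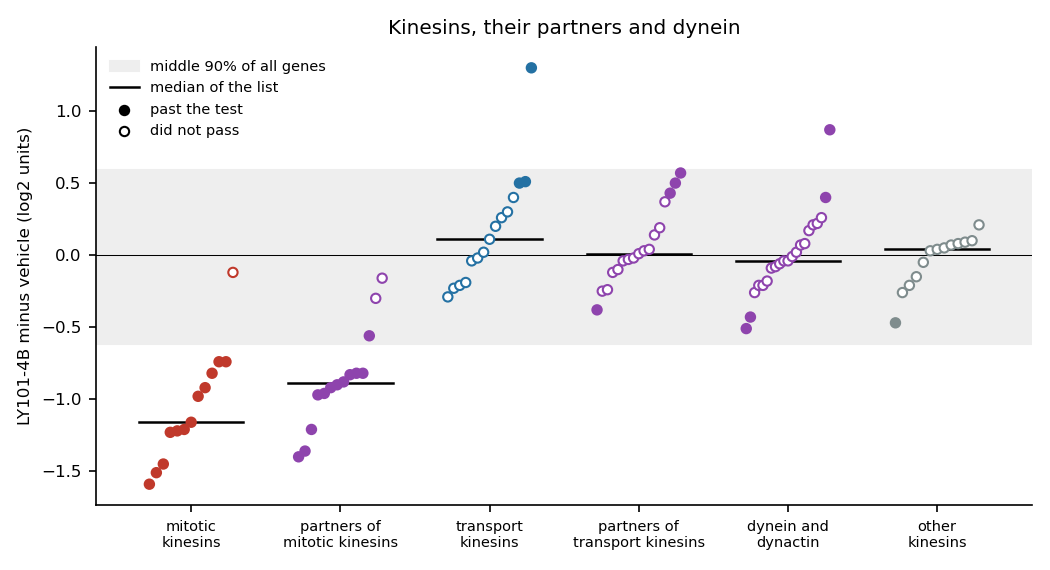
Differences, LY101-4B minus vehicle in log2 units, of the mitotic, transport and other kinesins, of the partner lists and of dynein, dynactin and associated proteins, with the median of each list as a bar; filled points passed the test and the grey band holds the middle 90% of all genes, from -0.62 to 0.59. The mitotic kinesins and their partners lie below that band, apart from KIF2B, AURKA (-0.56), NUMA1 and MAPRE1, while the medians of the other 4 lists lie between -0.04 and 0.11.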

How the data were processed

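Transcript levels were measured on Human Gene 1.0 ST arrays, with 2 LY101-4B and 2 vehicle samples. The deposited table holds log2 values made by RMA, per the submitters' processing notes. No version or filter is given in the sources used here. The method gives all arrays much the same distribution, so differences are relative to the bulk of genes. Of 33297 rows, 19460 had 1 gene symbol in the platform annotation, 1754 several and 12083 none. The 21214 with a symbol were fitted in limma 3.58.1 under R 4.3.3 (lmFit, eBayes, 2 residual degrees of freedom, prior worth 3.75), with treatment as the only term, 2-sided p and Benjamini-Hochberg adjustment over all of them. The fit was tested on simulated data. No filter on low values was used, so all members were tested. The array number limits the precision.

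Every kinesin was named, with array values for those past the test; of the partner and dynein lists the 4 called genes with the largest differences. ACTR1A had no probe set of its own and is not analysed here. Members and lists were chosen with earlier results of these data known. Symbols were checked against RefSeq of GRCh38.p14 (0 changed). Alternatives were the probe sets tested, normalization, prior, probe set per gene, list membership, a replicate block and leaving out each array.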

Additional observations from a re-analysis of the deposited data

How the results depend on the processing

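The falls of KIF11, KIF15, KIF18B, KIF20A, KIF22, KIF23, KIF4A and KIFC1 and the rise of KIF1A passed under every alternative in which they were fitted (KIF1A is not among the brighter 50% of probe sets). Mitotic kinesins that fell numbered 10 to 12 with 1 array left out and 9 with all rows of the table tested, where KIF14, KIF18A and KIF20B missed the threshold (adjusted p 0.0789, 0.0544 and 0.0578). Leaving out 1 array gave 10 to 12 kinesins lower and 1 to 2 higher, 1 to 2 transport kinesins higher, 0 others lower, 10 to 12 mitotic partners lower, 0 to 3 transport partners higher and 0 to 1 lower, and 1 to 2 dynein genes higher and 0 to 2 lower. The mitotic median then ranged from -1.22 to -1.06 and the transport median from 0.04 to 0.16. With all rows tested, 1 kinesin rose (KIF1A), 1 transport partner rose and 0 fell, 1 dynein gene rose and 0 fell, and 0 of the third list fell. KIF16B, KIF3C and KIF24 missed the threshold there (0.0784, 0.0641 and 0.0732). Over the brighter 50%, KIF1C and KIFC3 fell (2 transport kinesins), KIF13B rose, 2 transport partners fell, and 0 of the third list, in which KIF24 was no longer tested, fell. KIF1C also fell with arrays centred on their medians (1 transport kinesin, median 0.04) and with an intensity trend (1), which gave 4 dynein genes higher and 5 lower. Cyclic loess left 0 transport partners lower. Of the mitotic partners, NUMA1 passed as lower over the brighter 50% (limma adjusted p 0.0180), with median centring (0.0391) and with an intensity trend (0.0288). MAPRE1 passed as lower with that trend (0.0457). With KIF2A and KIF24 counted as mitotic, 13 of 15 fell, the mitotic median was -0.98 and 0 of the third list fell. The groups share replicate numbers, but with 2 pairs and a correlation of 0.116 between same-numbered deviations these were not taken to pair the samples; with the replicate number as a block 12 mitotic kinesins fell and 4 transport kinesins rose, KIF17 in addition (adjusted p 0.0385). Of 517 kinesin values under alternatives 19 changed sign, in genes that passed under neither setting. They were KIF19 (-0.04), KIF1B (-0.05), KIF25 (-0.02) and KIF27 (-0.03) with median centring and KIF19 (-0.02) with cyclic loess. With 1 array left out they were KIF12 (-0.01 to 0.19), KIF1B (-0.01 to 0.04), KIF21A (-0.15 to 0.31), KIF25 (-0.04 to 0.14), KIF26A (-0.12 to 0.02), KIF27 (-0.07 to 0.15), KIF3A (-0.19 to 0.10), KIF5A (-0.02 to 0.55), KIF7 (-0.04 to 0.19), KIF9 (-0.04 to 0.24) and KIFC2 (-0.15 to 0.11). Apart from the fewer genes or arrays in a fit, the cause of these changes was not tested. Without detection calls, signal over background limits the dim genes, such as KIF24, KIF2B and KIF5C.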
